A study of Bos taurus with 138 samples.

Results

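TUT4, TUT7 and DIS3L2 act in the decay of RNA that carries a uridine tail, and ZFP36, ZFP36L1 and ZFP36L2 act in the decay of mRNA that carries AU-rich elements. These 6 genes were taken by name from a table of 16706 gene symbols, and all 6 were found. They were chosen by their roles, with earlier results of these data known. TUT4 and TUT7 are terminal uridylyltransferases, which add uridines to the end of RNAs such as mRNAs with short poly(A) tails and microRNA precursors. DIS3L2 is an exonuclease that prefers such uridylated ends and works outside the RNA exosome. The ZFP36 proteins bind AU-rich elements through paired CCCH zinc fingers and recruit the CCR4-NOT deadenylase. In mouse oocytes and embryos both routes are known from loss-of-function models, in which the uridylyltransferases or ZFP36L2 are needed for female fertility.

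The samples were bovine GV oocytes (immature, with an intact germinal vesicle), MII oocytes (matured in vitro to metaphase II), and 2-cell, 8-cell, morula and blastocyst embryos. The embryos were made by in vitro fertilization of abattoir oocytes. No stage was set apart from another by a genetic change or a drug. Each library came from a pool of oocytes or embryos, so values of single animals or embryos are not known. At each of 6 stages, 2 sucrose gradients (A and B) were each cut into 10 fractions, F1 to F10, in which RNA with more ribosomes lies further down, and 3 whole transcriptomes (A, B and C) were sequenced. The study treats F1 and F2 as free RNA, F3 to F5 as monosomes and F8 to F10 as polysomes. Cycloheximide, which holds ribosomes on the mRNA, was given to living oocytes and embryos in culture before collection for gradients. It was also in the lysis buffer and the gradients. Whether the oocytes and embryos for transcriptomes were treated is not stated, and the part of this treatment in pool against transcriptome was not tested.

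Library totals were 1229381 to 17342858 expected counts in 120 fractions and 3269385 to 11812567 in 18 transcriptomes. In 10 fraction libraries fewer than 7000 genes reached 1 CPM, a count scaled to the total of its library. These were 4 of the 20 fractions of 8-cell embryos, 3 of morulae and 1 each of MII oocytes, 2-cell embryos and blastocysts. Because of them, 3 of the 12 polysome pools (8-cell gradient A, MII gradient B and morula gradient A) hold at least 1 such fraction, and calls of members that change without these pools are named below. The 9 oocyte markers sum to between 20570 and 22750 CPM in GV transcriptomes and between 48.1 and 781 CPM in blastocysts. The 7 trophectoderm markers sum to between 53.8 and 63.9 CPM and between 5418 and 6369 CPM, so both lists went with the labels of these stages. Hypoblast markers sum to between 106.9 and 198.6 CPM in 8-cell transcriptomes and between 88.79 and 145.1 CPM in blastocysts. Epiblast markers sum to between 377.2 and 478.8 CPM in morulae and between 144.6 and 184.5 CPM in blastocysts, so these lists did not single out blastocysts. The 16 markers of cumulus and granulosa cells, which surround the oocyte and were removed, sum to between 572 and 702 CPM in GV transcriptomes, mostly STAR at a mean of 543 CPM, with FOXL2 and COL3A1 at 0. In 8-cell transcriptomes these markers sum to between 301 and 1559 CPM, led by VCAN at a mean of 379 CPM, and their part in any result was not tested. The 5 blood cell markers sum to 9.05 to 141 CPM over all transcriptomes and to 24.4 to 514 CPM over all pools.

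Levels below are CPM with TMM factors, a share of a library and not an amount of RNA per embryo. In bulk samples fewer cells that express a gene and less RNA per cell cannot be told apart. A polysome pool is the sum of F8, F9 and F10 of 1 gradient (n = 2 per stage, against n = 3 transcriptomes), and changes were tested with edgeR's quasi-likelihood test over 14612 genes with Benjamini-Hochberg adjustment. A change between stages was called at an adjusted p below 0.05 and a fold change above 2, and a difference between pool and transcriptome at an adjusted p below 0.05. The methods state that the fractionation was repeated and that transcriptomes came from the same batches of oocytes and embryos. Whether the 3 transcriptomes of a stage came from separate batches is not stated. The quasi-likelihood test estimated the spread of each gene over pools and transcriptomes together. A p-value for 1 kind of library therefore also carries the spread of the other kind.

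TUT7 rose in whole embryos at the 8-cell stage, when the bovine embryonic genome becomes active, and fell afterwards. Its transcriptome levels were 94.7, 137 and 110 CPM in GV oocytes, 228, 245 and 354 CPM in MII oocytes, and 244, 230 and 164 CPM in 2-cell embryos. In 8-cell embryos they were 885, 1560 and 1224 CPM. They were 252, 337 and 392 CPM in morulae and 34.4, 34.6 and 28.4 CPM in blastocysts. All 3 8-cell libraries lay above every other transcriptome and all 3 blastocyst libraries below, and the ranges of MII oocytes overlapped those of morulae and of 2-cell embryos. From 2-cell to 8-cell TUT7 rose by a log2 fold change of 2.53 ± 0.50 (SE, adjusted p = 0.00018). It then fell by 1.90 ± 0.48 on the log2 scale from 8-cell to morula (adjusted p = 0.0087) and fell by 3.33 ± 0.52 from morula to blastocyst (adjusted p = 4.5e-05). The fall after the 8-cell stage was no longer called without morula transcriptome A. Between GV and MII the estimate was 1.27 ± 0.48 (adjusted p = 0.065), which did not pass the test. It passed with DESeq2 (adjusted p = 0.021), with the transcriptomes alone in the model (adjusted p = 0.00015) and without the pools of low gene detection (adjusted p = 0.029).

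Polysome pools held much less TUT7 than the transcriptome. Its pool levels were 4.19 and 5.51 CPM in GV oocytes, 6.05 and 4.51 CPM in MII oocytes, and 3.14 and 7.72 CPM in 2-cell embryos. In 8-cell embryos they were 133 and 183 CPM, followed by 9.78 and 19.4 CPM in morulae and 14.8 and 1.40 CPM in blastocysts. Every pool lay below every transcriptome of its stage. The log2 fold change of pool against transcriptome was -4.56 ± 0.65 in GV oocytes (adjusted p = 5.0e-06), -5.70 ± 0.69 in MII oocytes (adjusted p = 2.0e-07) and -5.29 ± 0.68 in 2-cell embryos (adjusted p = 6.6e-07). It was -2.95 ± 0.59 in 8-cell embryos (adjusted p = 0.00020), -4.48 ± 0.65 in morulae (adjusted p = 4.7e-06) and -2.0 ± 0.58 in blastocysts (adjusted p = 0.0078). TUT7 was lower in the pools at all 6 stages, and in blastocysts the call was lost without pool B and with a pool of F9 and F10.

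In polysomes TUT7 rose 29.1-fold from 2-cell to 8-cell (log2 fold change 4.86 ± 0.68, adjusted p = 4.3e-06) and fell by 3.43 ± 0.63 on the log2 scale from 8-cell to morula (adjusted p = 0.00024). With the pools alone in the model this fall lost its call (adjusted p = 0.071). The rise in polysomes exceeded the rise in the transcriptome by 2.34 ± 0.76 on the log2 scale (adjusted p = 0.044), a call lost when any 1 of 7 libraries was left out, with a replicate block, with size factors in place of TMM and with a pool of F9 and F10. From morula to blastocyst the polysome change (-0.85 ± 0.59, adjusted p = 0.38) lay above the transcriptome change by 2.48 ± 0.77 (adjusted p = 0.034). Leaving out any 1 of 7 libraries ended this call. Without blastocyst pool A the difference was -0.04, and without the pools of low gene detection it was 2.09 (adjusted p = 0.069).

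TUT4 had no called change between consecutive stages in the transcriptome. Its levels were 11.6, 10.2 and 10.0 CPM in GV oocytes, 21.1, 22.5 and 28.8 CPM in MII oocytes, and 15.1, 9.75 and 11.4 CPM in 2-cell embryos. They were 27.7, 16.1 and 9.22 CPM in 8-cell embryos, 25.4, 22.9 and 30.3 CPM in morulae and 28.2, 44.8 and 29.2 CPM in blastocysts. Ordered by mean, blastocysts (34.1 CPM) came first and GV oocytes (10.6 CPM) last, and each pair of neighbours in that order overlapped. All GV and 2-cell libraries nevertheless lay below all those of MII oocytes, morulae and blastocysts. With the 18 transcriptomes alone in the model, TUT4 rose from GV to MII (log2 fold change 1.18, adjusted p = 0.0032) and fell by 1.01 from MII to 2-cell (adjusted p = 0.013). Both also passed without the pools of low gene detection (adjusted p = 0.014 and 0.043).

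TUT4 was low in every polysome pool, with 0 CPM in pool A and 1.17 CPM in pool B of 8-cell embryos and at most 9.49 CPM in blastocysts. The pool lay below the transcriptome in GV oocytes (log2 fold change -2.93 ± 1.05, adjusted p = 0.030), MII oocytes (-3.68 ± 1.10, adjusted p = 0.0063), 8-cell embryos (-4.87 ± 1.17, adjusted p = 0.0012) and morulae (-2.65 ± 1.03, adjusted p = 0.035). The calls in GV oocytes and morulae were each lost when any 1 of 3 libraries was left out, and that in MII oocytes without pool A. A pool of F9 and F10 also ended the morula call (adjusted p = 0.13). In 2-cell embryos (-1.49 ± 0.98, adjusted p = 0.21) and blastocysts (-2.12 ± 1.01, adjusted p = 0.094) the difference did not pass the test, although both pools lay below all 3 transcriptomes. Without the 3 pools of low gene detection both passed (-1.51, adjusted p = 0.0035, and -2.13, adjusted p = 0.00025). Its polysome changes from 2-cell to 8-cell (log2 fold change -2.83 ± 1.10, adjusted p = 0.039) and from 8-cell to morula (2.78 ± 1.10, adjusted p = 0.0499) were called. The former was lost without 2-cell pool B or 8-cell pool A. The latter was lost when any 1 of 8 libraries was left out and rests on morula pool B at 8.05 CPM, against 0.24 CPM in pool A, and without pool B it was -1.29 (adjusted p = 0.44). It was lost as well with a replicate block (2.76, adjusted p = 0.055), with library totals and with a pool of F9 and F10, which also ended the former. With the pools alone in the model the former and the latter both lost their call (adjusted p = 0.35 and 0.41). Without the pools of low gene detection the polysome change of TUT4 from MII to 2-cell passed (2.55, adjusted p = 0.010). TUT4 had 0 counts in 35 of the 120 fraction libraries, 16 of them among the 20 of 8-cell embryos. A count of 0 allows up to 3 counts, or 0.17 to 2.44 CPM between the deepest and the shallowest of all 120 fraction libraries.

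DIS3L2 stayed between 1.83 and 12.1 CPM in whole oocytes and embryos. Its transcriptome levels were 5.09, 7.59 and 4.76 CPM in GV oocytes, 5.84, 5.88 and 9.40 CPM in MII oocytes, and 12.1, 8.79 and 8.88 CPM in 2-cell embryos. They were 5.40, 4.21 and 7.05 CPM in 8-cell embryos, 3.08, 4.29 and 1.83 CPM in morulae and 3.53, 2.07 and 2.40 CPM in blastocysts. No consecutive change was called, and each stage overlapped its neighbour in the order of means from 2-cell embryos (9.92 CPM) down to blastocysts (2.67 CPM). All GV, MII and 2-cell libraries nevertheless lay above all morula and blastocyst libraries. Of the contrasts of 8-cell, morula and blastocyst with GV or MII, only blastocyst against MII reached an adjusted p below 0.05 (-1.41 ± 0.53, adjusted p = 0.026). That was lost with library totals, with no filter and without MII transcriptome C or blastocyst transcriptome B or C.

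In F8 to F10 DIS3L2 fell at the 8-cell stage and rose to the morula, and the rise depended on which fractions were pooled. Its pool levels were 15.0 and 8.12 CPM in 2-cell embryos, 1.23 and 3.04 CPM in 8-cell embryos, 7.81 and 10.6 CPM in morulae and 13.6 and 12.9 CPM in blastocysts. The 8-cell pools were the lowest of the 12. The changes were -2.43 ± 0.64 from 2-cell to 8-cell (log2 fold change, adjusted p = 0.0037) and 2.11 ± 0.64 from 8-cell to morula (adjusted p = 0.013). With the 12 pools alone in the model both changes lost their call (adjusted p = 0.12 and 0.18). Against the transcriptome, the pool was lower in 8-cell embryos (-1.37 ± 0.59, adjusted p = 0.048) and higher in morulae (1.58 ± 0.56, adjusted p = 0.021) and blastocysts (2.32 ± 0.57, adjusted p = 0.0025), and did not pass the test in GV, MII or 2-cell samples (adjusted p = 0.53, 0.59 and 0.77). The polysome change from 8-cell to morula exceeded the transcriptome change by 2.96 ± 0.81 on the log2 scale (adjusted p = 0.018). Without 8-cell pool A, which is one of the pools of low gene detection, the call for 8-cell against transcriptome, the rise to morula in polysomes and this difference were all lost. The first was also lost without 8-cell transcriptome A or C, and with a replicate block (-1.40, adjusted p = 0.067), and the higher level in morula pools without morula transcriptome C or pool B. With a pool of F7 to F10, 8-cell against transcriptome was -0.47 (adjusted p = 0.44), the rise to morula 1.11 (adjusted p = 0.12) and the difference 1.96 (adjusted p = 0.071). In 8-cell gradient A, F6 and F7 held 67.7% of the DIS3L2 signal. Without the pools of low gene detection, 8-cell against transcriptome was -0.89 (adjusted p = 0.20) and the rise to morula 1.81 (adjusted p = 0.055).

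**Figure D1:**
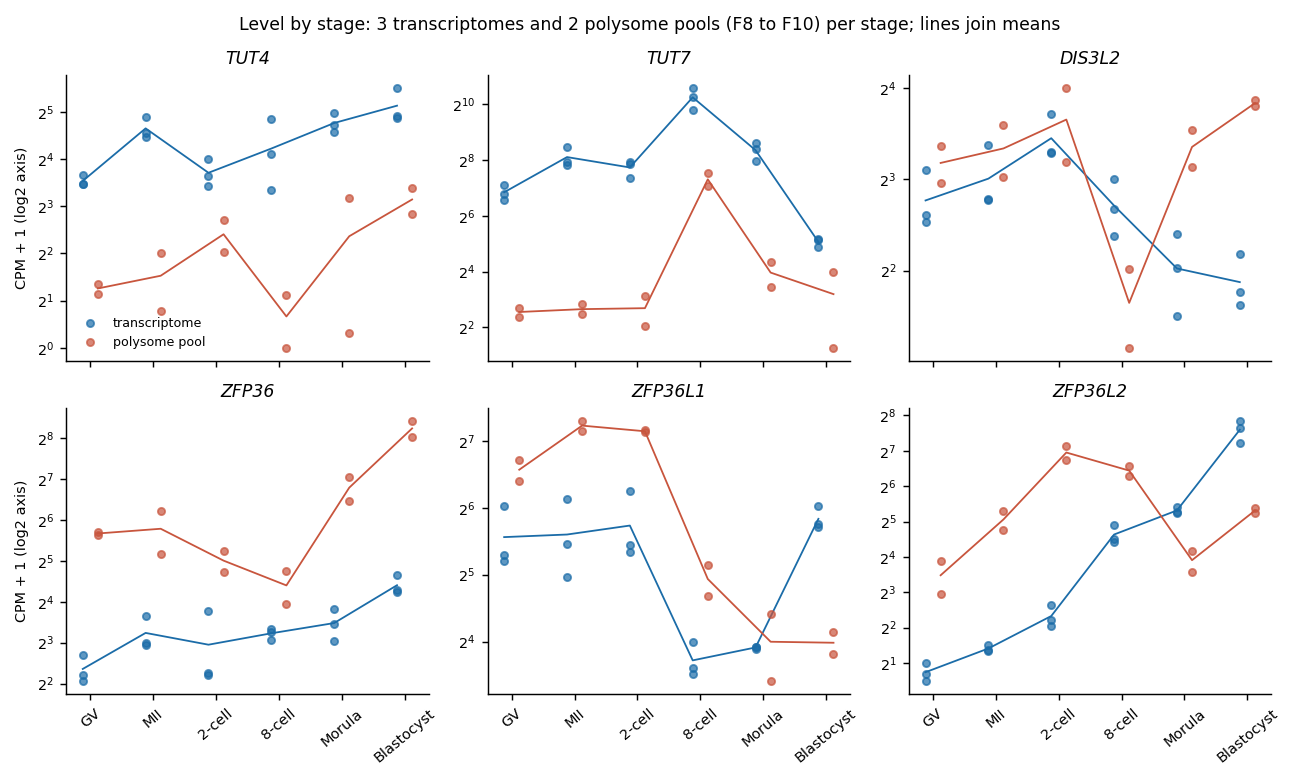
Level of each gene (CPM + 1, log2 axis) by stage in 3 transcriptomes (blue points) and 2 polysome pools of F8 to F10 (red points), with lines through the means. TUT7 peaks at the 8-cell stage in both, DIS3L2 pools fall to 1.23 and 3.04 CPM at the 8-cell stage, and ZFP36L2 transcriptomes rise from 0.41 CPM at the lowest to 230 CPM at the highest while its pools are highest in 2-cell embryos.

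ZFP36L2 rose through development in the transcriptome. Its levels were 0.99, 0.62 and 0.41 CPM in GV oocytes, 1.60, 1.83 and 1.55 CPM in MII oocytes, and 3.12, 3.68 and 5.27 CPM in 2-cell embryos. They were 20.6, 29.0 and 21.9 CPM in 8-cell embryos, 36.9, 41.9 and 37.6 CPM in morulae and 150, 230 and 198 CPM in blastocysts. No 2 stages overlapped, and the mean of blastocysts was 288 times that of GV oocytes. The lowest library held 4 expected counts. The rises were 1.28 ± 0.40 from GV to MII (log2 fold change, adjusted p = 0.026), 1.27 ± 0.36 from MII to 2-cell (adjusted p = 0.019), 2.56 ± 0.35 from 2-cell to 8-cell (adjusted p = 1.9e-06) and 2.31 ± 0.34 from morula to blastocyst (adjusted p = 2.4e-05). Morula against 8-cell (0.70 ± 0.33, adjusted p = 0.15) was not called. The rise from GV to MII lost its call when any 1 of 5 libraries was left out (GV B or C, MII A, B or C), and that from MII to 2-cell when any 1 of 4 was (MII A, B or C, 2-cell C). By the rule for embryonic genes (above both oocyte stages by more than 4-fold in 8-cell, morula and blastocyst transcriptomes, adjusted p below 0.05 in all contrasts), ZFP36L2 was the 1 member called embryonic, as 6.69% of genes were. None of the 6 was called maternal, as 6.79% of genes were.

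The polysome level of ZFP36L2 ran a different course. Its pool levels were 13.7 and 6.68 CPM in GV oocytes, 38.4 and 26.3 CPM in MII oocytes, and 106 and 139 CPM in 2-cell embryos, then 94.7 and 77.0 CPM in 8-cell embryos, 17.1 and 10.9 CPM in morulae and 36.6 and 40.7 CPM in blastocysts. The 2-cell pools were the highest, and those of morulae overlapped those of GV oocytes. ZFP36L2 rose in polysomes from GV to MII (log2 fold change 1.67 ± 0.41, adjusted p = 0.016) and from MII to 2-cell (1.92 ± 0.41, adjusted p = 0.0048). From 2-cell to 8-cell the estimate was -0.52 ± 0.40 (adjusted p = 0.30), then it fell by 2.62 ± 0.42 to morula (adjusted p = 6.0e-05) and rose by 1.47 ± 0.41 to blastocyst (adjusted p = 0.019). The first rise was lost without GV pool B or MII pool A, the second without MII pool B and the last without pool B of either stage. The first and the last were also lost with a pool of F7 to F10, and the first with library totals (adjusted p = 0.074). With the pools alone in the model each of these rises lost its call (adjusted p = 0.48, 0.26 and 0.33).

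Polysome and transcriptome changes of ZFP36L2 differed from 2-cell to 8-cell and from 8-cell to morula. The polysome change lay below the transcriptome change by -3.08 ± 0.53 from 2-cell to 8-cell (log2 difference, adjusted p = 0.00064) and by -3.32 ± 0.53 from 8-cell to morula (adjusted p = 0.00025), and no single library or alternative ended either call. Pool against transcriptome was 3.88 ± 0.41 in GV oocytes (log2 fold change, adjusted p = 7.0e-08), 4.28 ± 0.40 in MII oocytes (adjusted p = 3.0e-09), 4.93 ± 0.40 in 2-cell embryos (adjusted p = 9.5e-10) and 1.85 ± 0.36 in 8-cell embryos (adjusted p = 0.00014). In morulae (-1.47 ± 0.38, adjusted p = 0.0027) and blastocysts (-2.32 ± 0.40, adjusted p = 6.1e-05) the pool was lower, although in morulae a pool of F7 to F10 gave -0.90 (adjusted p = 0.052). Both pools lay above all 3 transcriptomes in the first 4 stages and below them in the last 2.

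ZFP36, the first described member of the family (tristetraprolin), was higher in polysome pools than in whole oocytes or embryos at all 6 stages, least and least firmly in 8-cell embryos. Its transcriptome levels were 3.18 to 5.54 CPM in GV oocytes, 6.64 to 11.7 CPM in MII oocytes, 3.60 to 12.8 CPM in 2-cell embryos, 7.35 to 9.13 CPM in 8-cell embryos and 7.22 to 13.3 CPM in morulae (n = 3 each). Blastocysts held 17.9, 24.1 and 18.6 CPM, above every other stage. No consecutive change was called in the transcriptome, morula to blastocyst included (log2 fold change 0.99 ± 0.44, adjusted p = 0.11). That step passed with DESeq2 (adjusted p = 0.037) and with the transcriptomes alone (adjusted p = 0.036). GV to MII (1.03 ± 0.44, adjusted p = 0.11) passed with DESeq2 (adjusted p = 0.032), with the transcriptomes alone (adjusted p = 0.047) and without the pools of low gene detection (adjusted p = 0.049).

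The polysome pools of ZFP36 held 48.8 and 51.2 CPM in GV oocytes, 73.2 and 35.3 CPM in MII oocytes, 36.6 and 25.8 CPM in 2-cell embryos and 25.9 and 14.3 CPM in 8-cell embryos. Morula pools held 132 and 88.0 CPM and blastocyst pools 344 and 260 CPM, above all earlier pools. ZFP36 rose in polysomes from 8-cell to morula by a log2 fold change of 2.45 ± 0.55 (adjusted p = 0.0014). Morula to blastocyst (1.46 ± 0.53, adjusted p = 0.064) did not pass the test. It passed with DESeq2 (adjusted p = 0.015), the likelihood ratio test (adjusted p = 0.037), size factors in place of TMM (adjusted p = 0.048) and without the pools of low gene detection (1.80, adjusted p = 0.025). The rise from 8-cell to morula exceeded the transcriptome change by 2.17 ± 0.68 (adjusted p = 0.037), a call that leaving out any 1 of 6 libraries ended, as did library totals and both other polysome pools (F9 and F10, F7 to F10). Pool against transcriptome ranged from 1.26 ± 0.47 in 8-cell embryos (log2 fold change, adjusted p = 0.025) to 3.90 ± 0.50 in blastocysts (adjusted p = 1.3e-06), and all 6 stages were called. In 8-cell embryos the call was lost without pool A or transcriptome B, with size factors in place of TMM and with a pool of F9 and F10, and the value was 0.76 (adjusted p = 0.19) without the pools of low gene detection.

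ZFP36L1 fell at the 8-cell stage in both kinds of library. Its transcriptome levels were 38.3, 35.9 and 64.5 CPM in GV oocytes, 69.4, 43.0 and 30.1 CPM in MII oocytes, and 39.3, 42.5 and 74.8 CPM in 2-cell embryos. They were 11.1, 10.5 and 14.9 CPM in 8-cell embryos, 14.2, 13.9 and 14.1 CPM in morulae and 51.5, 52.9 and 63.8 CPM in blastocysts. The 8-cell and morula libraries lay below all the others, and blastocysts overlapped the first 3 stages. It fell by 2.10 ± 0.36 from 2-cell to 8-cell (log2 fold change, adjusted p = 3.9e-05) and rose by 2.0 ± 0.36 from morula to blastocyst (adjusted p = 0.00024).

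In polysomes ZFP36L1 fell and did not come back by the blastocyst. Its pools held 104 and 83.8 CPM in GV oocytes, 157 and 141 CPM in MII oocytes, and 142 and 139 CPM in 2-cell embryos, then 34.5 and 24.6 CPM in 8-cell embryos, 9.64 and 20.3 CPM in morulae and 13.0 and 16.6 CPM in blastocysts. The log2 fold change from 2-cell to 8-cell was -2.25 ± 0.44 (adjusted p = 0.00025), and morula to blastocyst gave -0.02 ± 0.42 (adjusted p = 1.0). From 8-cell to morula it was -0.98 ± 0.43 (adjusted p = 0.073), which passed with DESeq2 (-1.06, adjusted p = 0.021), other scalings and a pool of F7 to F10. Without the pools of low gene detection, the estimate for this step was only -0.28. From morula to blastocyst the polysome change lay below the transcriptome change (log2 difference -2.01 ± 0.55, adjusted p = 0.020), and leaving out morula pool B, blastocyst pool A or blastocyst pool B ended that call. Pool against transcriptome was called higher in GV, MII, 2-cell and 8-cell samples, between 1.02 ± 0.38 (GV, adjusted p = 0.035) and 1.65 ± 0.38 (MII, adjusted p = 0.00074), was 0.09 ± 0.39 in morulae (adjusted p = 0.87) and was -1.92 ± 0.42 in blastocysts (adjusted p = 0.00073). The GV call was lost without GV transcriptome A or B or either GV pool, and the 8-cell call (1.28 ± 0.38, adjusted p = 0.0064) without pool A. A pool of F9 and F10 also ended the GV call (adjusted p = 0.18).

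Counts of called members are given with the percent of all genes called in the same comparison. In the transcriptome, GV to MII had 1 call of 6 (17.1% of all genes), MII to 2-cell 1 (12%), 2-cell to 8-cell 3 (50.1%), 8-cell to morula 1 (14.4%) and morula to blastocyst 3 (21.6%). In polysomes, GV to MII had 1 call of 6 (5.37%), MII to 2-cell 1 (8.51%), 2-cell to 8-cell 4 (46.3%), 8-cell to morula 5 (36.2%) and morula to blastocyst 1 (13.9%). For pool against transcriptome, GV oocytes had 5 calls of 6 (39.8%), MII oocytes 5 (57.5%), 2-cell embryos 4 (51.0%), 8-cell embryos 6 (59.1%), morulae 5 (51.7%) and blastocysts 5 (40.1%). The difference between polysome and transcriptome change had 0 calls of 6 for GV to MII (10.6%) and for MII to 2-cell (1.81%), where 0 members reached an unadjusted p below 0.05 and DESeq2 also called 0. It had 2 calls for 2-cell to 8-cell (12.2%), 3 for 8-cell to morula (12.5%) and 2 for morula to blastocyst (12.3%). Without the pools of low gene detection TUT4 was called in both of the early steps, at -2.12 (adjusted p = 0.042) and 3.57 (adjusted p = 0.0060), and also from 2-cell to 8-cell at -2.41 (adjusted p = 0.017) and from 8-cell to morula at 2.21 (adjusted p = 0.044).

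Monosome and free RNA fractions also differed from the transcriptome. For this, F3 to F5 and F1 with F2 were pooled in the same way as the polysomes and set against the transcriptome, a choice made after the data were seen. TUT7 was lower than the transcriptome at 6 of 6 stages in F3 to F5 and at 5 of 6 in F1 and F2. ZFP36 was higher at 6 of 6 stages in F3 to F5 and at 5 of 6 in F1 and F2. In morulae, for example, ZFP36 was higher by 5.13 ± 0.49 on the log2 scale in F3 to F5 (adjusted p = 7.2e-09) and by 3.83 ± 0.58 in F1 and F2 (adjusted p = 1.6e-05). ZFP36L2 in GV oocytes was higher by 5.94 ± 0.39 in F3 to F5 (adjusted p = 2.8e-11) and by 5.47 ± 0.47 in F1 and F2 (adjusted p = 2.0e-09). In blastocysts ZFP36L2 was called lower in F8 to F10, while the values were -0.34 ± 0.32 in F3 to F5 (adjusted p = 0.40) and 0.08 ± 0.40 in F1 and F2 (adjusted p = 0.92), and the difference between these pools was not tested. What set gradient libraries apart from whole libraries for these genes was not tested.

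**Figure D2:**
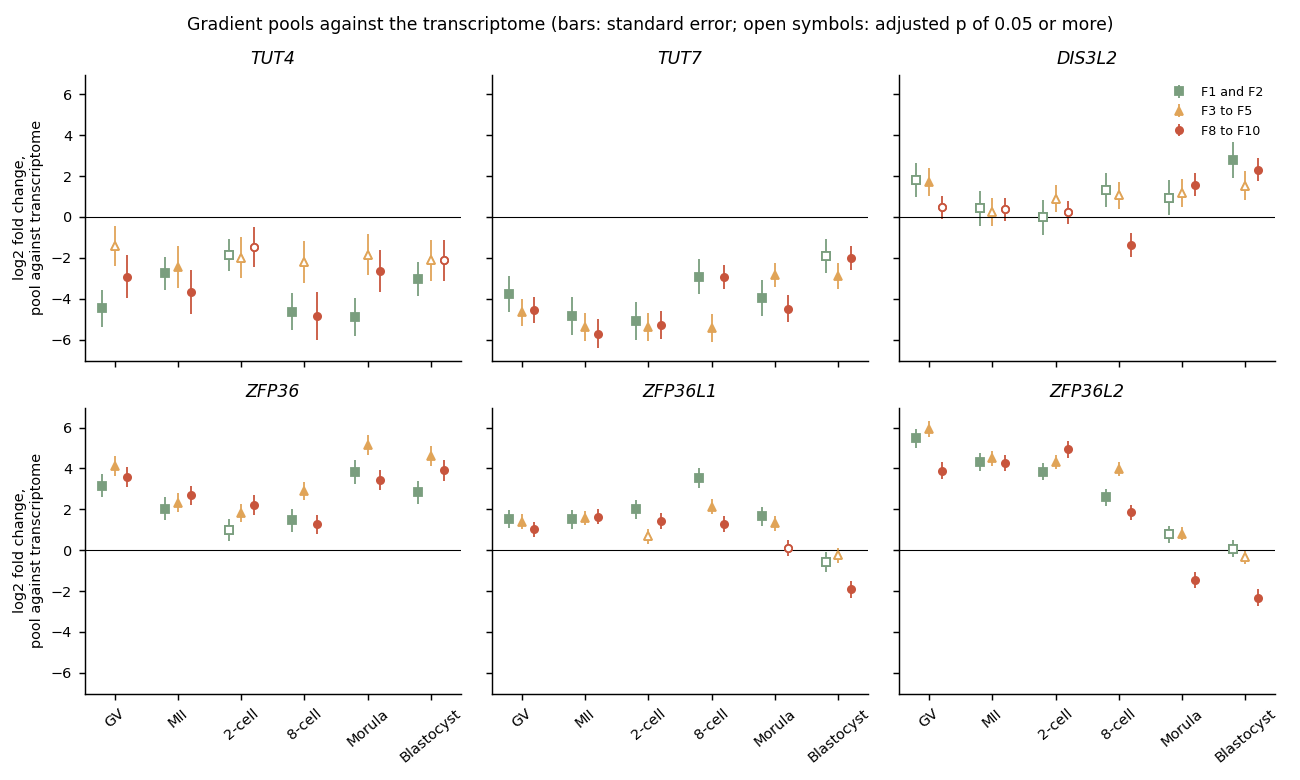
Log2 fold change (standard error bars) of F1 and F2, F3 to F5 and F8 to F10, each pooled within a gradient, against the transcriptome of the stage, with open symbols where the adjusted p was 0.05 or more. TUT7 lies below 0 and ZFP36 above 0 in all 3 pools at all 6 stages, while ZFP36L2 in F8 to F10 passes from 4.93 in 2-cell embryos to -2.32 in blastocysts.

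Within a gradient, the trend of a gene from F3 to F10 was measured by Spearman's rho over the 16 libraries of both gradients, with 100000 permutations and adjustment over all genes with a mean of at least 1 CPM. The permutations treat fractions that share a gradient as independent, so these p-values do not measure the spread between gradients. At most 2 members had a called trend at any stage. In GV oocytes 36.5% of genes had a trend, as had DIS3L2 and ZFP36L2. DIS3L2 fell toward heavy fractions (rho = -0.83, adjusted permutation p = 0.00098), from 15.2 and 17.9 CPM in F3 of gradients A and B to 4.05 and 8.70 CPM in F10, with rho of -0.81 and -0.88 within each gradient. ZFP36L2 fell as well (rho = -0.77, adjusted permutation p = 0.0047), from 50.3 and 31.1 CPM in F3 to 2.89 and 0 CPM in F10. In MII oocytes no member had a trend, where 19.3% of genes did. TUT4 had the lowest adjusted p there (rho = -0.61, adjusted permutation p = 0.063).

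In 2-cell embryos (20.3% of genes) ZFP36L1 rose toward heavy fractions (rho = 0.75, adjusted permutation p = 0.014), from 60.6 and 78.4 CPM in F3 to 137 and 157 CPM in F10. Its highest level was in F1, at 450 CPM in gradient A, a library of low gene detection, and 168 CPM in gradient B, and over F1 to F10 rho was -0.03. In 8-cell embryos (16.6%) ZFP36 (rho = -0.72, adjusted permutation p = 0.022) and ZFP36L2 (rho = -0.81, adjusted permutation p = 0.0064) fell. ZFP36L2 held 520 CPM in F4 of gradient A and 296 CPM in F3 of gradient B, its peaks, and 9.57 to 141 CPM in F8 to F10. TUT7 at this stage ran the other way without passing the test (rho = 0.57, adjusted permutation p = 0.10), with 164, 151 and 185 CPM in F8, F9 and F10 of gradient B and 2.85, 88.4 and 282 CPM in gradient A. In F1 of gradient B it held 734 CPM, against 16.2 CPM in gradient A. Of gradient A at this stage, F1, F7, F9 and F10 were libraries of low gene detection.

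In morulae, where 1.55% of genes had a trend, ZFP36 fell (rho = -0.86, adjusted permutation p = 0.014) from 364 and 720 CPM in F3 to 121 and 55.9 CPM in F10. In blastocysts, where 7.50% had one, ZFP36L1 fell (rho = -0.75, adjusted permutation p = 0.028). It held 52.7 and 50.3 CPM in F4 and 9.13 and 4.80 CPM in F10. ZFP36L2 in blastocysts gave rho = -0.50 (adjusted permutation p = 0.22), with levels of 198 and 218 CPM in F3 and a flat stretch of 16.6 to 38.3 CPM from F6 to F10. With 8 libraries of 1 gradient alone, 3 of the 7 trends of members were called in gradient B and 0 in gradient A. Among stages with a called trend, only 8-cell embryos and morulae had fractions of low gene detection within F3 to F10. Without these fractions their trends kept their call, ZFP36 in 8-cell embryos at an adjusted permutation p of 0.049. The trends of GV oocytes, 2-cell embryos and blastocysts were not put to this test. Over F1 to F10 only the trends of GV oocytes kept their call, and the other 5 lost it (adjusted p between 0.090 for ZFP36L1 in blastocysts and 0.96 for ZFP36L1 in 2-cell embryos). With library totals ZFP36 in 8-cell embryos lost it as well (adjusted p = 0.067). Over F1 to F10 trends were called instead for ZFP36L1 in 8-cell embryos (rho = -0.73) and morulae (rho = -0.70) and for ZFP36L2 in morulae (rho = -0.71) and blastocysts (rho = -0.71).

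**Figure D3:**
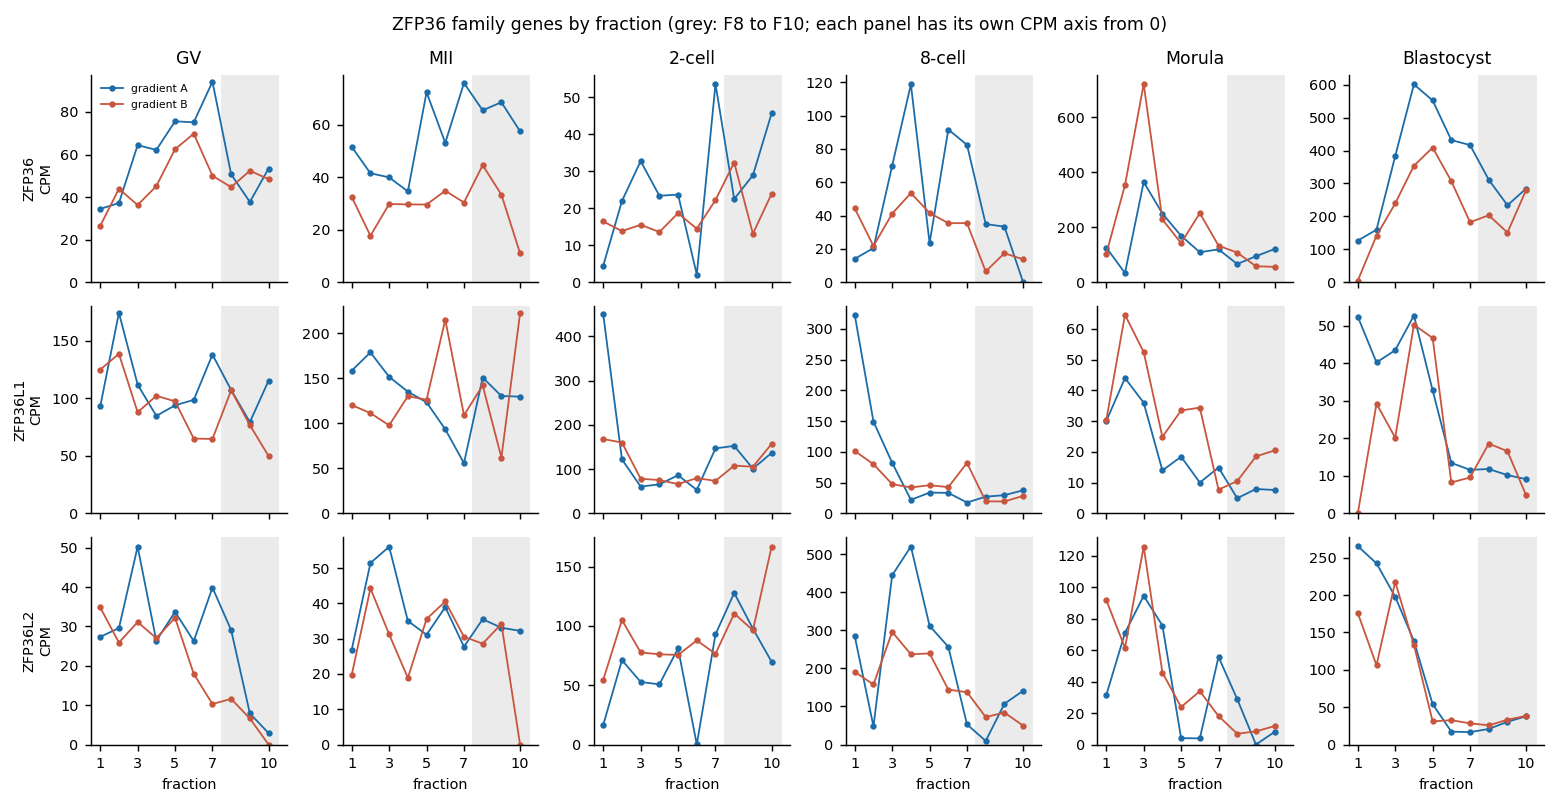
CPM of ZFP36, ZFP36L1 and ZFP36L2 in F1 to F10 of gradients A (blue) and B (red) at each stage, with F8 to F10 shaded and a separate axis from 0 in every panel. In 8-cell embryos and morulae ZFP36 and ZFP36L2 peak in F3 or F4, with morula ZFP36 at 720 CPM in F3 of gradient B, and in 2-cell embryos ZFP36L2 peaks in F8 or F10.

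As a description, the share of a gene's summed CPM over F1 to F10 that lay in F8 to F10 was computed per gradient, where equal CPM in all fractions would give 30%. For ZFP36L2 the gradients of GV oocytes gave 14.6% and 9.22%, those of MII oocytes 27.4% and 22.1%, and those of 2-cell embryos 44.7% and 40.3%. Later gradients gave 11.9% and 12.8% (8-cell), 9.89% and 6.30% (morula) and 8.72% and 11.8% (blastocyst). The 2-cell shares lay above all others of that gene and the 8-cell to blastocyst shares all below those of MII oocytes and 2-cell embryos. ZFP36L1 went from 2-cell shares of 28.4% and 34.6% to 8-cell shares of 12.5% and 13.2%, and stayed between 10.9% and 19.6% after that. For ZFP36 the 2-cell shares were 37.5% and 37.7%, the 8-cell shares 14.0% and 12.1%, and the blastocyst shares 23.7% and 27.9%. For all 3 ZFP36 genes, the shares of 8-cell embryos and morulae lay below those of MII oocytes and 2-cell embryos in both gradients, and gradient A of these later stages holds fractions of low gene detection.

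The shares of TUT4, TUT7 and DIS3L2 were less alike between gradients. For TUT4 in morulae they were 0.72% and 94.5%, since 88.2% of the signal of gradient A lay in F4 alone and 94.2% of that of gradient B in F10 alone. For TUT7 in blastocysts they were 42.6% and 6.93%, with 73.7% of the signal of gradient B in F7. DIS3L2 gave 2.81% and 8.87% in 8-cell embryos, its lowest, and 26.2% and 27.4% in morulae. The DIS3L2 signal of gradient A in 8-cell embryos and morulae lay mainly in F6, at 72.5 and 35.2 CPM. Over the 10 fractions, log2(CPM + 1) of gradient A and B correlated with r between -0.67 (DIS3L2, morula) and 0.93 (ZFP36L2, blastocyst), given as a description of 10 fractions that share a gradient.

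**Figure D4:**
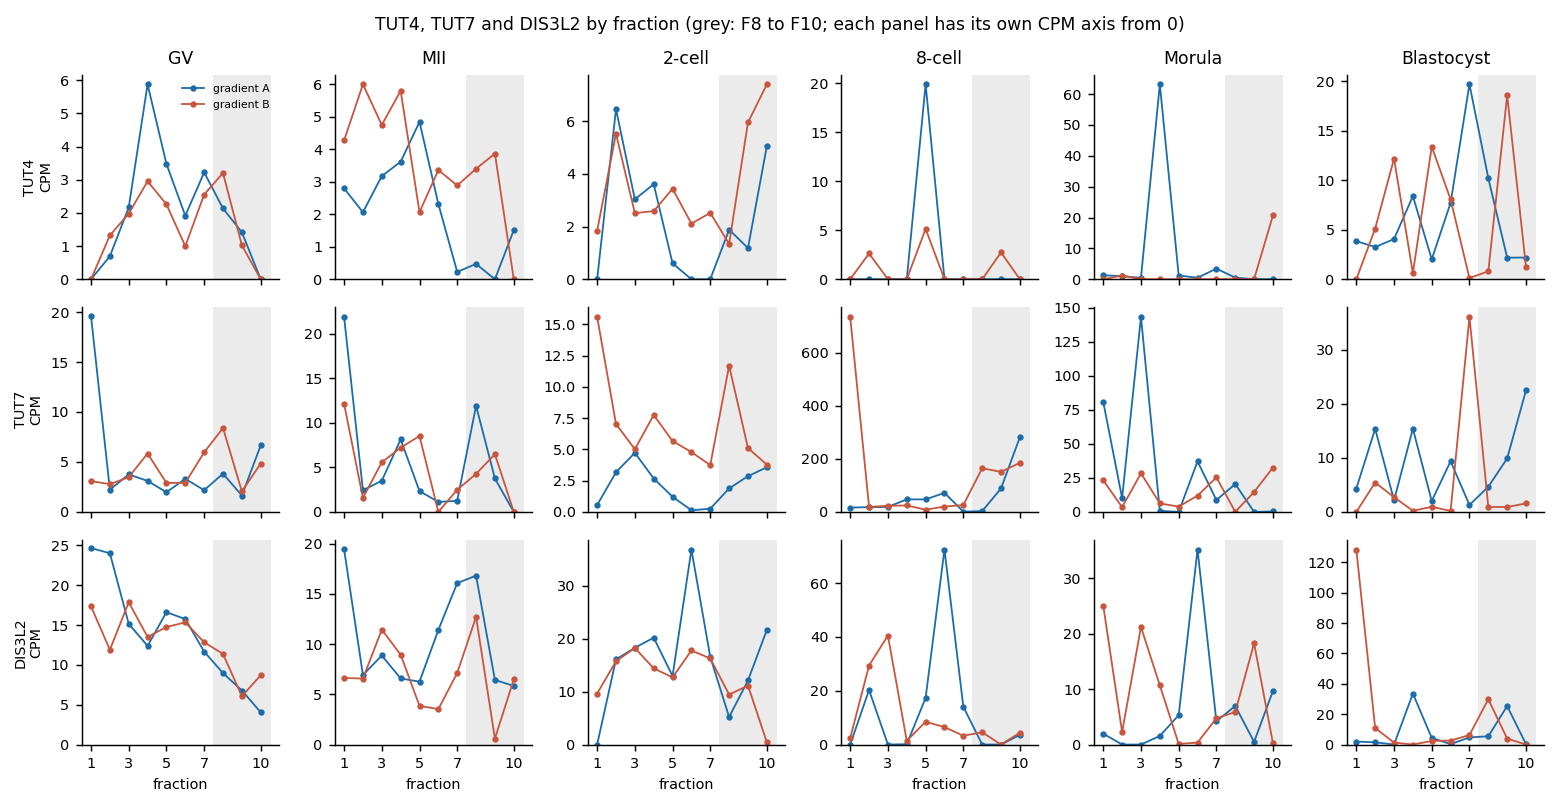
CPM of TUT4, TUT7 and DIS3L2 in F1 to F10 of gradients A (blue) and B (red) at each stage, with F8 to F10 shaded and a separate axis from 0 in every panel. Single fractions carry most of the signal in several panels, such as F4 of gradient A for TUT4 in morulae at 63.2 CPM, while DIS3L2 in GV oocytes declines along both gradients.

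**Figure D5:**
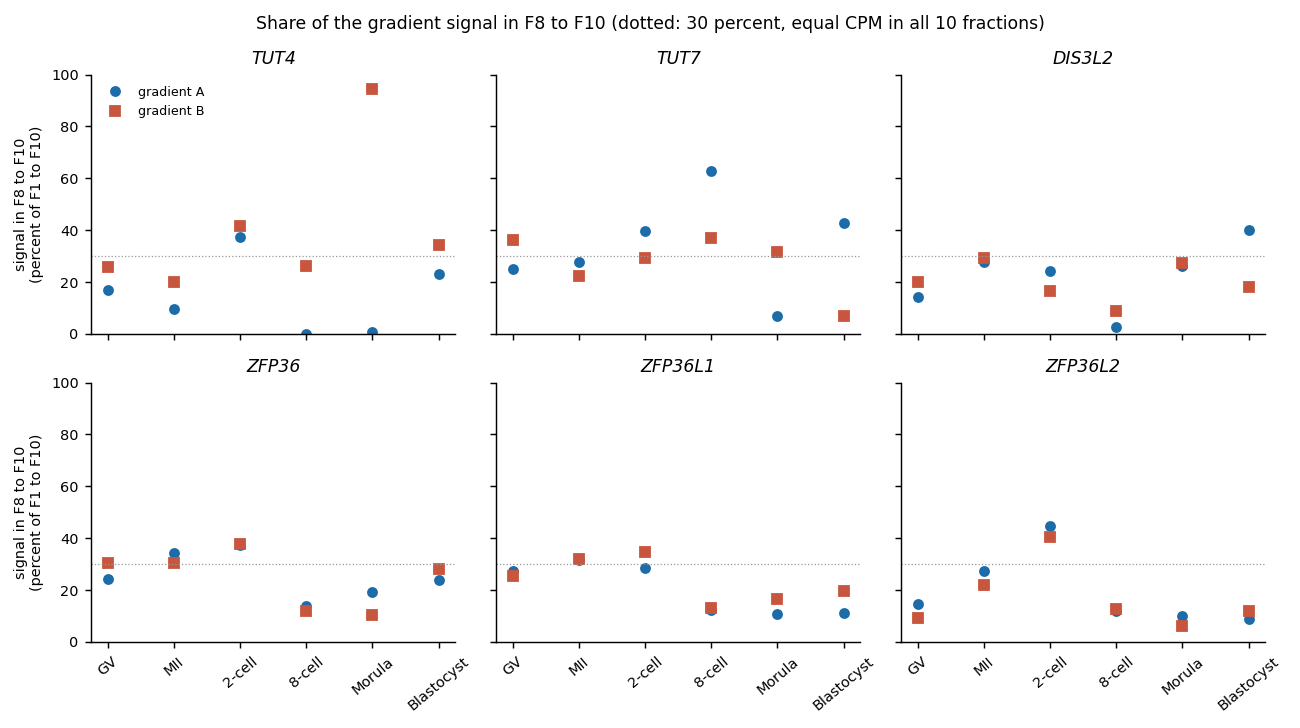
Percent of a gene's summed CPM over F1 to F10 that lay in F8 to F10, 1 point per gradient and stage, with a dotted line at 30%, the value for equal CPM in all fractions. ZFP36L2 passes from 44.7% and 40.3% in 2-cell embryos to 11.9% and 12.8% in 8-cell embryos, and the gradients of TUT4 in morulae differ most.

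Other genes of these routes were counted in 8 lists, chosen with earlier results of these data known, for 3 comparisons: the transcriptome change from 2-cell to 8-cell (26.6% of all genes rose and 23.5% fell, median log2 fold change 0.03), and pool against transcriptome in GV oocytes (22.2% higher, 17.7% lower, median 0) and in 8-cell embryos (28.0% higher, 31.0% lower, median -0.27), where pool A is one of low gene detection. Of 11 other terminal nucleotidyltransferases and poly(A) polymerases, 3 rose and 6 fell from 2-cell to 8-cell (median -1.01). TENT5C, a cytoplasmic poly(A) polymerase of the TENT5 family, fell by 4.32 ± 0.73 on the log2 scale (adjusted p = 3.3e-05, from a mean of 63.9 to 3.20 CPM), and TENT5B fell by 3.96 ± 0.49 (adjusted p = 5.0e-07). TENT5A rose (3.88 ± 1.38, adjusted p = 0.021), and TENT5D went from 0 in all 3 2-cell transcriptomes to a mean of 11.5 CPM. In the pools TENT5B was higher than in the transcriptome in GV oocytes (4.79 ± 0.52, adjusted p = 1.1e-07) and 8-cell embryos (6.37 ± 0.56, adjusted p = 2.4e-09), as was TENT5C (3.83 ± 0.73, adjusted p = 0.00018, and 6.31 ± 0.82, adjusted p = 7.1e-07). Pool against transcriptome in this list gave 2 higher and 4 lower of 11 in GV oocytes (median 0) and 3 higher and 5 lower in 8-cell embryos (median -0.59). PAPOLG (-1.60 ± 0.29, adjusted p = 0.00012) and PAPOLA (-1.31 ± 0.27, adjusted p = 0.00032), nuclear poly(A) polymerases, had the largest falls among those called in GV oocytes. In 8-cell embryos these were TENT5A, with a mean of 11.4 CPM in the transcriptome and 0.027 CPM in the pools, and TENT4B (-3.33 ± 1.28, adjusted p = 0.029).

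Among 17 genes of oligo(U) binding and decay, such as the LSM ring and exonucleases, 7 rose and 1 fell from 2-cell to 8-cell (median 0.34). LSM5 (3.18 ± 0.54, adjusted p = 3.2e-05) and LSM6 (2.53 ± 0.48, adjusted p = 0.00012), subunits of that ring, rose most, and USB1, an exonuclease that trims the end of U6 RNA, fell by 2.41 ± 0.25 (adjusted p = 2.2e-08). Pool against transcriptome was higher for 2 and lower for 9 of the 17 in GV oocytes (median -0.95) and higher for 4 and lower for 8 in 8-cell embryos (median -0.65). USB1 was higher in the pools of both (2.03 ± 0.26, adjusted p = 9.1e-07, and 4.47 ± 0.28, adjusted p = 2.4e-11), with PATL1 (1.83 ± 0.49, adjusted p = 0.0041), a decapping factor, in GV oocytes and LSM4 (1.71 ± 0.35, adjusted p = 0.00023) in 8-cell embryos. SSB, the La protein that binds oligo(U) ends, was lower in GV pools (-3.45 ± 0.40, adjusted p = 2.6e-07), as was LSM3 (-3.27 ± 0.63, adjusted p = 0.00018). DIS3, the exosome nuclease related to DIS3L2, was lower in 8-cell pools (-4.45 ± 0.50, adjusted p = 8.3e-08), and LIN28B was at 0 there against a mean of 0.50 CPM in the transcriptome.

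Of 10 RNA exosome subunits, 3 rose and 1 fell (median 0.00), with EXOSC1 (2.65 ± 0.28, adjusted p = 3.5e-08) and EXOSC5 (1.39 ± 0.29, adjusted p = 0.00037) up and EXOSC3 down by 1.05 ± 0.37 (log2 fold change -1.05, adjusted p = 0.019). Pool against transcriptome was higher for 2 and lower for 2 in GV oocytes (median -0.20) and higher for 4 and lower for 2 in 8-cell embryos (median 0.16). The same 4 subunits led in both. EXOSC6 (2.65 ± 0.56, adjusted p = 0.00054, and 4.19 ± 0.59, adjusted p = 2.6e-06) and EXOSC4 (1.95 ± 0.28, adjusted p = 4.3e-06, and 2.35 ± 0.28, adjusted p = 2.0e-07) were higher. EXOSC8 (-3.28 ± 0.37, adjusted p = 1.5e-07, and -2.79 ± 0.36, adjusted p = 6.3e-07) and EXOSC9 (-2.65 ± 0.44, adjusted p = 3.9e-05, and -2.98 ± 0.45, adjusted p = 6.9e-06) were lower.

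Of 19 other proteins that bind AU-rich or related elements, 18 were in the model, and 4 rose and 5 fell from 2-cell to 8-cell (median 0.94). TIA1, a translational repressor that binds U-rich sequence, rose (5.93 ± 0.86, adjusted p = 5.3e-06), and ELAVL2, a stabilizing protein of the HuR family, fell by 3.48 ± 0.61 (adjusted p = 4.8e-05) with ZC3H12C (-2.99 ± 0.86, adjusted p = 0.0057). TIA1 was at 0 in both 8-cell pools, against a mean of 30.6 CPM in the transcriptome. ZC3H12A, a nuclease of inflammatory mRNAs, was higher in pools of GV oocytes (mean 4.73 against 0.025 CPM) and 8-cell embryos (6.32 ± 0.90, adjusted p = 2.6e-06), as was HNRNPA0 (2.49 ± 0.98, adjusted p = 0.045, and 4.12 ± 0.96, adjusted p = 0.00088). HNRNPD (-3.29 ± 0.45, adjusted p = 2.8e-06) and CELF1 (-1.97 ± 0.43, adjusted p = 0.00073) were lower in GV pools and RC3H2 (-3.57 ± 1.15, adjusted p = 0.011) in 8-cell pools. In all, 4 were higher and 2 lower of 18 in GV oocytes (median -0.95), and 5 were higher and 4 lower in 8-cell embryos (median -0.54).

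Among the 11 CCR4-NOT subunits, the deadenylase that ZFP36 proteins recruit, 2 rose (CNOT9, 2.18 ± 0.42, adjusted p = 0.00015, and CNOT6, 1.25 ± 0.52, adjusted p = 0.049) and 6 fell (median -1.11), led by CNOT3 (-2.24 ± 0.46, adjusted p = 0.00030) and CNOT4 (-1.89 ± 0.27, adjusted p = 2.9e-06). Pool against transcriptome was higher for 1 and lower for 5 in GV oocytes (median -0.44) and higher for 2 and lower for 7 in 8-cell embryos (median -1.09). CNOT6, a catalytic subunit, was lower in both (-4.80 ± 0.74, adjusted p = 1.3e-05, and -3.91 ± 0.69, adjusted p = 4.5e-05), with CNOT6L (-1.87 ± 0.49, adjusted p = 0.0034) in GV oocytes and CNOT10 (-2.95 ± 0.59, adjusted p = 0.00020) in 8-cell embryos, and CNOT11 was higher in both (1.78 ± 0.45, adjusted p = 0.0030, and 2.04 ± 0.46, adjusted p = 0.00057). CNOT3 was higher in 8-cell pools (1.95 ± 0.49, adjusted p = 0.0016). Of 5 kinases and phosphatases that act on ZFP36 proteins, 1 rose and 1 fell (median -0.36). DUSP1, the phosphatase that turns off p38 signalling, rose (5.34 ± 0.41, adjusted p = 3.5e-10, from a mean of 4.05 to 165 CPM), and MAPKAPK2, the kinase that phosphorylates ZFP36, fell by 1.98 ± 0.40 (adjusted p = 0.00023). In the pools 2 were higher and 1 lower in both GV oocytes (median 0.20) and 8-cell embryos (median 0.95), with MAPKAPK3 (3.81 ± 0.43, adjusted p = 1.9e-07, and 3.30 ± 0.43, adjusted p = 6.8e-07) and DUSP1 (2.08 ± 0.38, adjusted p = 0.00012, and 2.49 ± 0.38, adjusted p = 6.6e-06) higher and PPP2CA (-0.76 ± 0.24, adjusted p = 0.013, and -1.20 ± 0.24, adjusted p = 0.00020) lower.

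Of 17 mRNAs known from other cells to carry AU-rich elements, 14 were in the model, and 10 rose and 2 fell from 2-cell to 8-cell (median 4.59, or 3.90 with genes at 0 in a group set to their bound). MYC rose from a mean of 0.076 to 15.5 CPM (adjusted p = 5.0e-05) and CXCL8 from 0 to 1.39 CPM, while PTGS2 fell by 2.55 ± 0.54 (adjusted p = 0.00045) and PIM1 fell by 1.69 ± 0.43 (adjusted p = 0.0023). Whether these mRNAs carry the elements in cattle was not examined. The pools gave 5 higher and 1 lower of 14 in GV oocytes (median -0.10, or 0 with bounds), with FOS (3.34 ± 1.13, adjusted p = 0.021) and DUSP1 higher and MCL1 (-1.73 ± 0.30, adjusted p = 5.8e-05) lower. In 8-cell embryos they gave 4 higher and 4 lower (median -0.41), with IER3 (3.96 ± 0.58, adjusted p = 4.5e-06) and PIM1 (3.79 ± 0.49, adjusted p = 6.7e-07) higher, CCND1 lower (mean 0.041 against 2.15 CPM, adjusted p = 0.023) and CXCL8 at 0 in both pools. Of the 17 immediate-early genes, transcription factors and regulators that respond within minutes to a stimulus, 16 were in the model. From 2-cell to 8-cell 11 rose and 1 fell (median 4.70, or 4.43 with bounds). EGR3 went from 0 to a mean of 2.01 CPM, MYC rose as above, and NR4A1 fell by 1.49 ± 0.39 (adjusted p = 0.0026). In the pools of GV oocytes 9 were higher and 0 lower (median 2.02), with IER2 (mean 5.69 against 0.11 CPM, adjusted p = 5.3e-05) and NR4A1 (4.19 ± 0.44, adjusted p = 7.3e-08) first. In 8-cell embryos 6 were higher and 1 lower (median 1.03), with IER2 (5.0 ± 0.69, adjusted p = 1.9e-06), and JUND (4.68 ± 0.48, adjusted p = 2.2e-08) higher and EGR1 (-2.67 ± 0.99, adjusted p = 0.024) lower. The last 2 lists share FOS, IER3, DUSP1 and MYC.

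By Pearson's r of log2(CPM + 1) over the 18 transcriptomes, whose 3 libraries per stage are alike, the genes most like each member were, as a description, UBR1, TMBIM4 and CYFIP1 for TUT4 (r = 0.91, 0.89 and 0.87), ZYG11A, RRP15 and ARHGAP5 for TUT7 (0.96, 0.96 and 0.96), and ASXL3, ELAVL2 and SVEP1 for DIS3L2 (0.93, 0.91 and 0.91). They were CTBP2, NELFCD and PFN1 for ZFP36 (0.87, 0.86 and 0.86), SHC1, EZR and AKAP10 for ZFP36L1 (0.93, 0.93 and 0.93), and SEC24C, MIEF1 and ACVR2B for ZFP36L2 (0.99, 0.98 and 0.98). Between members r was highest for ZFP36 with ZFP36L2 (0.79) and lowest for TUT7 with ZFP36L1 (-0.76), the pair that moved in opposite directions from 2-cell to 8-cell and from morula to blastocyst.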

How the data were processed

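RNA of 120 gradient fractions and 18 whole transcriptomes was amplified and sequenced from pools of bovine oocytes and embryos. The authors quantified reads with Salmon on a bovine annotation and deposited the estimates (expected counts) in 1 table with a row per gene symbol (16706 symbols, 138 libraries, 11.7% of values not whole), without normalization. The methods and the labels name different genome builds, so no coordinates are given, and without transcript lengths levels were not compared between genes. Of 78 pairs of replicate libraries, 0 held identical values.

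Expected counts were rounded, F8 to F10 were summed within each gradient, and the 12 pools and 18 transcriptomes were fitted in 1 model with edgeR 4.0.16 (R 4.3.3, TMM, filterByExpr, quasi-likelihood test, two-sided, Benjamini-Hochberg over 14612 genes). Calls used an adjusted p below 0.05, with a fold change above 2 between stages and above 4 for maternal and embryonic genes. Standard errors are the log2 fold change divided by the square root of F. Trends used log2(CPM + 1) of F3 to F10 and 100000 permutations of the fraction labels. Pool totals were 22543733 to 39380640 counts. The floors (3 counts) cover counting error only, since amplified reads without molecular identifiers are not independent molecules. The quasi-likelihood fit was tried on simulated counts for transcriptome changes and for pool against transcriptome, and the trend test on simulated fractions. Other contrasts and the alternatives were not simulated. The alternatives were other tests (edgeR likelihood ratio, DESeq2 1.42.0), scalings, filters, pools, a replicate block and leaving out each library.

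The 6 members, the gene lists and the markers were chosen with earlier results of these data known. Pools of F1 and F2 and of F3 to F5, and the fits without libraries of low gene detection, were chosen after seeing the data. Named genes were the 6 members, the 3 genes most correlated with each, and the 2 called list members with the largest change in each direction. A gene that this rule names is not reported here.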

Additional observations from a re-analysis of the deposited data

Results flagged for a closer look

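In 7 cases the change of a member between consecutive stages differed between polysome pools and transcriptome by edgeR's quasi-likelihood test of that difference (log2 polysome change minus log2 transcriptome change, 2 pools and 3 transcriptomes per stage). From 2-cell to 8-cell the difference was 2.34 for TUT7 (adjusted p = 0.044) and -3.08 for ZFP36L2 (adjusted p = 0.00064). From 8-cell to morula it was 2.96 for DIS3L2 (adjusted p = 0.018), 2.17 for ZFP36 (adjusted p = 0.037) and -3.32 for ZFP36L2 (adjusted p = 0.00025). From morula to blastocyst it was -2.01 for ZFP36L1 (adjusted p = 0.020) and 2.48 for TUT7 (adjusted p = 0.034). Both values of ZFP36L2 kept their call in every alternative and whichever library was left out, and the other 5 lost it without at least 1 library.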

How the results depend on the processing

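Counts of called members were 9 of 30 for the transcriptome, 12 of 30 for polysomes, 30 of 36 for pool against transcriptome, 7 of 30 for the difference between polysome and transcriptome change, 1 embryonic gene and 7 of 36 trends. With the 18 transcriptomes alone the first became 14, and with the 12 pools alone the second became 4. With a pool of F9 and F10 the differences in change became 3. Leaving out 1 library gave 7 to 10, 10 to 14, 27 to 31 and 4 to 9 calls in the same order, with 4 without morula transcriptome B or C, and 1 gradient alone gave 0 to 3 trends. The direction reversed for TUT4 in polysomes from 8-cell to morula without morula pool B (-1.29, with a range up to 9.19 over single libraries left out, reached where the 8-cell pool left was at 0 and so no bound), for the TUT7 difference in change from morula to blastocyst without blastocyst pool A (-0.04, range up to 3.37), and for the ZFP36L1 trend in 2-cell embryos over F1 to F10 (rho = -0.027), and the cause was not tested. Libraries with the same letter did not deviate together (r of -0.07 to 0.04 between transcriptome and pool, and -0.35 to 0.13 between consecutive transcriptomes), so letters were not taken to pair them. With a replicate block the counts were 9, 11, 29, 6, 1 and 7. Without pools or fractions of low gene detection, chosen after seeing the data, they were 13, 13, 30, 10, 1 and 7. Scaling by library totals shifted the median of all genes by up to 0.47 on the log2 scale (MII to 2-cell transcriptome), and size factors by up to -0.24 (pool against transcriptome, 8-cell). TUT4 had 0 counts in 35 of 120 fractions, and in transcriptomes the lowest counts were 4 for ZFP36L2 and 10 for DIS3L2.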
